A study of Mus musculus with 2 samples.

Results

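Microtubules are hollow polymers of alpha-tubulin and beta-tubulin dimers, and mammals encode each subunit in several closely related genes. In microglia, the resident macrophages of the brain, microtubules carry organelles into the branching processes, and in a dividing cell they form the spindle that separates the chromosomes. Stathmin, encoded by Stmn1, binds free tubulin dimers and destabilizes microtubules, and it is regulated by phosphorylation during mitosis. The RNA of 7 tubulin genes and of Stmn1 was followed here in sorted mouse microglia. The genes were taken by name from the 32285 genes of the deposited matrix, and all 8 were present. The alpha-tubulin genes were Tuba1a, Tuba1b and Tuba1c. The beta-tubulin genes were Tubb5, Tubb2a, Tubb4b and Tubb6.

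All mice carried 1 copy of the Cx3cr1CreERT2(Litt) allele, a tamoxifen-inducible Cre recombinase expressed from the locus of Cx3cr1, a chemokine receptor gene of microglia and other myeloid cells. No floxed target gene is named in the labels, and both groups carried the allele. The mice were 12 weeks old and had been given oil, the vehicle, or tamoxifen (TAM) for 4 weeks. After perfusion, brain cells that carried CD11b and CD45 and lacked Ly6G and CD206 were sorted, marked with 10 hashtag antibodies (Oil1 to Oil5 and TAM1 to TAM5) and run as a single droplet pool. The 5 hashtags of each treatment served as replicates. The labels do not state that a hashtag was 1 mouse, so errors and p-values describe how hashtags vary, and part of that variation may be technical. The edgeR fits share the estimate of spread between genes, so an error can be smaller than the gene's own spread over hashtags.

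Molecules were counted by unique molecular identifiers (UMIs), which count each captured RNA once, at the 3′ end, so that counts do not scale with transcript length. Of 9975 barcodes, 7614 were single, assigned to 1 hashtag and lay in 6 clusters in which all 14 microglial markers, such as P2ry12 and Tmem119, were detected. The hashtags held 591 to 907 of these cells and 2965171 to 4803461 UMIs, with medians of 4880 to 5086 UMIs per cell. Outside Oil3, where 797 cells did, few cells had at least 80% of their hashtag UMIs from 1 hashtag. Their number ran from 1 in Oil5 to 143 in TAM3, so most assignments rest on a mixed hashtag signal. The 8 neuronal markers, which include the neuronal tubulin Tubb3 and the neuronal stathmin Stmn2, summed to 0.308 to 2.86 counts per 1000000 UMIs (CPM) in oil hashtags and 0.337 to 3.33 CPM in TAM hashtags. Among them Meg3 had 0 UMIs in both treatments, and Tubb3 had 7 UMIs in oil and 3 in TAM. RNA of the 21 immediate early genes, the first genes a cell induces on stimulation or during tissue dissociation, made up 0.248% to 0.730% of UMIs in oil hashtags and 0.139% to 0.254% in TAM hashtags. The share was highest in Oil1 and lowest in TAM5 and largely followed the position of a hashtag in the list of 10, so that position, immediate early RNA and treatment moved together.

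Dividing cells were those with at least 3 summed UMIs of Mki67 and Top2a, a pair of genes transcribed in cycling cells. Of the 7614 microglia-like cells 49 met this limit, 8 in oil and 41 in TAM. They made up 0.216% ± 0.120 (SD, n = 5) of the cells of an oil hashtag and 1.07% ± 0.554 (SD, n = 5) of those of a TAM hashtag. The TAM hashtags were higher by 0.849 percentage points, and the ranges of 0.112% to 0.371% and 0.239% to 1.70% overlapped (exact two-sided permutation test over 252 regroupings, p = 0.0238). Dividing cells were deeper than the other cells, with a median of 8376 against 4973 UMIs. The 8 genes were selected on their measured UMIs in TAM against oil and inside against outside dividing cells, so for them both contrasts are given as descriptions without a test.

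Tubulin RNA is controlled by its own product. When free tubulin is abundant, the factor TTC5 recognizes the first residues of a tubulin chain as it leaves the ribosome, and the RNA being translated is degraded. The bases that encode these residues are the first of the coding sequence. They are shown here 5′ to 3′ from the start codon for 7 of the 8 genes (GENCODE M21 transcripts, GRCm38), with the first 12 bases in capitals, so that the tubulin genes can be set against Stmn1.
Tuba1a: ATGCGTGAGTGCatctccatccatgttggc
Tuba1b: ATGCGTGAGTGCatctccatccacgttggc
Tuba1c: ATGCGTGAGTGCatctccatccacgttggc
Tubb5: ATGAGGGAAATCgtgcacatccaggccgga
Tubb2a: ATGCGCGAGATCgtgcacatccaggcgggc
Tubb4b: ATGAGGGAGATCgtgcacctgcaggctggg
Stmn1: ATGGCATCTTCTgatattcaggtgaaagag
The first 12 bases are the same in the 3 alpha-tubulin genes, differ between the beta-tubulin genes in spelling, and are unlike either in Stmn1.

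The alpha-tubulin genes are also near-copies along the rest of their length. Tuba1a (ENSMUSG00000072235, chr15:98949837-98953703, minus strand) and Tuba1b (ENSMUSG00000023004, chr15:98931425-98934565, minus strand) (GRCm38, GENCODE M21, as for all positions of genes here) had identical bases at 98.3% of 1353 coding positions. Tuba1c (ENSMUSG00000043091, chr15:99029891-99038110, plus strand) lies next to them in the genome. In the last 500 bases of the transcript, where 3′ libraries read, 52.1% of 90-base windows of Tuba1a also occurred in another annotated gene, as did 60.1% in Tuba1b and 65.0% in Tuba1c. The other genes were one another and Gm-named loci. The share was 25.8% in Tubb2a, with Tubb2b, 12.7% in Tubb4b, and 0% in Tubb5, Tubb6 and Stmn1. How the authors' counting treated reads shared between copies is not given in the sources used here, so the division of alpha-tubulin counts among the 3 genes is uncertain.

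Tuba1a, an alpha-tubulin gene that is abundant in the developing nervous system, was lower in TAM. It stood at 130, 121, 121, 105 and 116 CPM in Oil1 to Oil5 and at 91.3, 81.4, 80.6, 88.7 and 73.8 CPM in TAM1 to TAM5. The highest TAM hashtag lay below the lowest oil hashtag. The log2 fold was -0.51 ± 0.07 (SE, TAM over oil, edgeR), and it lay between -0.55 and -0.47 when any one hashtag was left out. The difference was also there outside dividing cells, at a log2 fold of -0.50 ± 0.07, where TAM ranged from 74.1 to 91.4 CPM and oil from 104 to 131 CPM. Between Oil4 and Oil5 alone, the oil hashtags with the least immediate early RNA, and all TAM hashtags, the log2 fold was -0.40. With the immediate early level of each hashtag as a covariate it was -0.33, and with hashtag position as a covariate -0.25. The part of immediate early RNA in the difference was not tested.

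Tuba1b, a broadly expressed alpha-tubulin gene, stood at 86.9, 103, 86.7, 81.7 and 93.6 CPM in the oil hashtags. In the TAM hashtags it stood at 88.2, 91.5, 95.2, 89.2 and 75.4 CPM. The groups overlapped along most of their range, and the log2 fold was -0.04 ± 0.07. Outside dividing cells it was -0.10 ± 0.07.

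Tuba1c, the least abundant of the alpha-tubulin genes by UMIs, stood at 28.7, 16.9, 12.96, 9.37 and 8.21 CPM in Oil1 to Oil5 and at 12.4, 8.44, 9.89, 7.74 and 4.73 CPM in TAM1 to TAM5. Oil1 was far above the rest, Oil2 and Oil3 also lay above every TAM hashtag, and Oil4 and Oil5 lay within the TAM range. The log2 fold of -0.77 ± 0.31 moved between -0.94 and -0.42 on leaving out 1 hashtag. It was -0.0027 between Oil4 with Oil5 and the TAM hashtags, and 0.79 with immediate early level as a covariate, so its direction depended on how that level was handled.

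Added together, the 3 alpha-tubulin genes gave 224 ± 19.99 CPM (SD, n = 5) in oil and 180 ± 14.9 CPM (SD, n = 5) in TAM. The ranges of 196 to 246 CPM and 154 to 192 CPM did not overlap. Tuba1a made up 53.0% ± 1.69 of alpha-tubulin UMIs in oil and 46.3% ± 2.06 in TAM (SD, n = 5), again without overlap. Outside dividing cells these shares were 53.3% ± 1.56 and 48.2% ± 2.60 and overlapped.

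**Figure D1:**
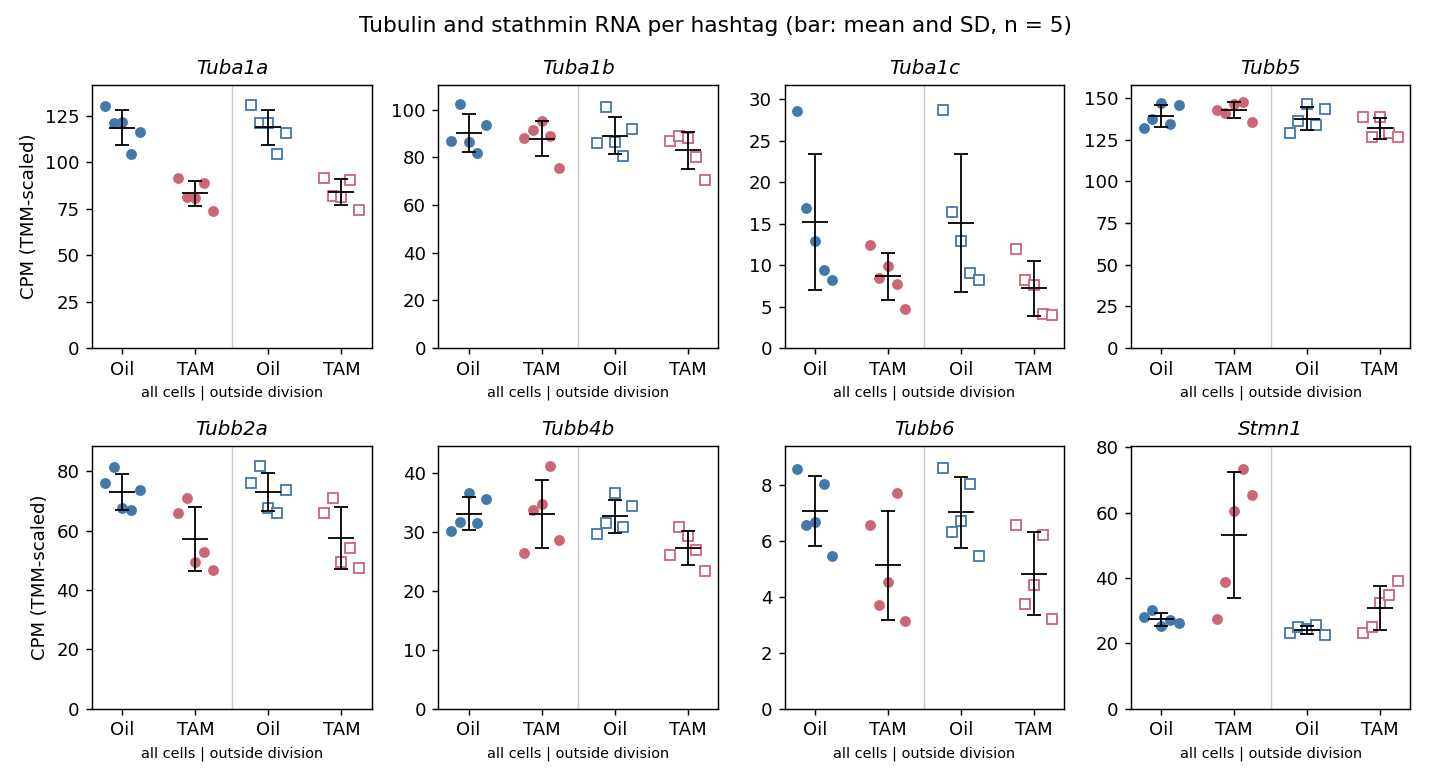
Level of each gene in CPM (TMM-scaled) per hashtag, in all microglia-like cells (filled circles) and outside dividing cells (open squares), oil in blue and TAM in red, with mean and SD over 5 hashtags. Tuba1a of the TAM hashtags lies below every oil hashtag in both sets of cells, and Stmn1 of TAM3 to TAM5 lies at 60.6 to 73.4 CPM in all cells and at 32.2 to 39.2 CPM outside dividing cells.

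Tubb5 (ENSMUSG00000001525, chr17:35833921-35838306, minus strand), a broadly expressed beta-tubulin gene, differed little between treatments. It stood at 132, 138, 147, 135 and 146 CPM in oil and at 143, 141, 146, 148 and 136 CPM in TAM. Each group spanned nearly the same interval. The log2 fold was 0.03 ± 0.05 in all cells and -0.06 ± 0.05 outside dividing cells.

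Tubb2a (ENSMUSG00000058672, chr13:34074274-34078007, minus strand), a beta-tubulin gene known from neurons, stood at 76.0, 81.3, 67.5, 66.9 and 73.7 CPM in oil. In TAM it stood at 65.9, 70.9, 49.2, 52.7 and 46.8 CPM. TAM3, TAM4 and TAM5 lay well below all oil hashtags, TAM1 lay just below the lowest of them, and TAM2 lay within the oil range. The log2 fold of -0.36 ± 0.10 was nearly the same outside dividing cells (-0.35 ± 0.10). It was -0.07 with immediate early level as a covariate and 0.05 with hashtag position. Treatment and these measures cannot be told apart for Tubb2a.

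Tubb4b (ENSMUSG00000036752, chr2:25222160-25224702, minus strand), a broadly expressed beta-tubulin gene also used in cilia, stood at 30.1, 31.7, 36.6, 31.5 and 35.6 CPM in oil and at 26.5, 33.8, 34.8, 41.2 and 28.6 CPM in TAM. The TAM hashtags spread on both sides of the oil range, and the log2 fold was -0.01 ± 0.11. Outside dividing cells it was -0.27 ± 0.09, with 29.6 to 36.7 CPM in oil and 23.4 to 30.8 CPM in TAM.

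Tubb6 (ENSMUSG00000001473), a beta-tubulin gene of low level in these cells, had 238 UMIs in all. It ranged from 5.48 to 8.60 CPM in oil and from 3.15 to 7.74 CPM in TAM, with overlap and a log2 fold of -0.44 ± 0.23. The 4 beta-tubulin genes together gave 253 ± 8.29 CPM in oil and 238 ± 14.7 CPM in TAM (SD, n = 5), and these ranges overlapped. Outside dividing cells the values were 250 ± 8.62 and 222 ± 14.4 CPM (SD, n = 5), and the ranges of 239 to 257 CPM and 200 to 237 CPM did not overlap.

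Stmn1 (ENSMUSG00000028832, chr4:134468320-134473843, plus strand) was the gene with the largest fold toward TAM among the 8. It stood at 28.1, 30.1, 25.2, 27.1 and 26.1 CPM in Oil1 to Oil5 and at 27.4, 38.8, 60.6, 73.4 and 65.4 CPM in TAM1 to TAM5. TAM1 lay within the oil range, and the other TAM hashtags lay above it. The log2 fold was 0.97 ± 0.20 (SE) and lay between 0.83 and 1.15 without any one hashtag. Outside dividing cells it was 0.36 ± 0.13, with oil at 23.3, 24.9, 24.4, 25.7 and 22.7 CPM and TAM at 23.3, 25, 32.2, 34.7 and 39.2 CPM. There TAM1 and TAM2 lay within the oil range, and TAM3, TAM4 and TAM5 lay above it. With every cell holding at least 1 UMI of Mki67 or Top2a removed, the log2 fold was 0.17. With immediate early level or hashtag position as a covariate it was 0.31 or 0.06 in all cells, and 0.0058 or -0.17 outside dividing cells.

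In the fit of TAM against oil, 487 of 11175 genes passed (edgeR quasi-likelihood test, Benjamini-Hochberg adjusted p below 0.05), which is 4.36%. All 8 genes passed the filter on low counts, and 2 of them, Tuba1a and Stmn1, were among the 487. Their median log2 fold was -0.20, beside 0.00 over all genes tested. Outside dividing cells 3.87% of 11094 genes passed, and 1 of the 8 did, Tuba1a. Their median log2 fold there was -0.31. Split by direction, 1.57% of all genes were higher and 2.79% lower in TAM, and outside dividing cells 1.28% and 2.59%. The genes were chosen by their values in this contrast, so nothing is read from either count.

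The difference between treatments can be divided by where its UMIs lay. For Stmn1, TAM exceeded oil by 26.8 CPM of total UMIs (not TMM-scaled), of which 20.1 lay in dividing cells and 6.77 in the others, so that 74.8% of the difference came from the 49 dividing cells. In oil 11% of Stmn1 UMIs lay in dividing cells, and in TAM 43.4%.

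For Tuba1a the pattern was the opposite. Dividing cells added 0.760 CPM of total UMIs to TAM, and the other cells gave a difference of -33.7. Dividing cells held 0.133% of Tuba1a UMIs in oil and 1.09% in TAM. They averaged 0.216% and 1.07% of the cells of a hashtag, but they were deeper, so their share of all UMIs was larger. In pooled TAM cells Tuba1a stood at 52.7 CPM of total UMIs inside division, on 18 UMIs, and at 84.6 outside it. In pooled oil cells it stood at 42.0, on 3 UMIs, and at 117. For Tubb2a dividing cells added 0.375 and the others gave -14.7 CPM of total UMIs.

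The parts had opposite signs in every gene except Stmn1. Tuba1c differed by 1.41 CPM of total UMIs in dividing cells and by -7.69 in the others, and Tubb6 by 0.337 and by -2.12. For Tubb4b, Tubb5 and Tuba1b the part in dividing cells was the larger or nearly as large. Tubb4b was higher by 5.78 CPM of total UMIs in dividing cells and differed by -5.05 in the others, a sum of 0.727. Tubb5 differed by 11.7 in dividing cells and by -4.88 in the others, and Tuba1b by 5.31 and by -5.51. The total includes the UMIs of dividing cells, so a larger part for them lowers the values of the others on this scale. On the TMM scale outside dividing cells the log2 folds of Tubb5 and Tuba1b were of the size of their errors (-0.06 ± 0.05 and -0.10 ± 0.07). Dividing cells held 1.58% of Tubb4b UMIs in oil and 19.1% in TAM.

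**Figure D2:**
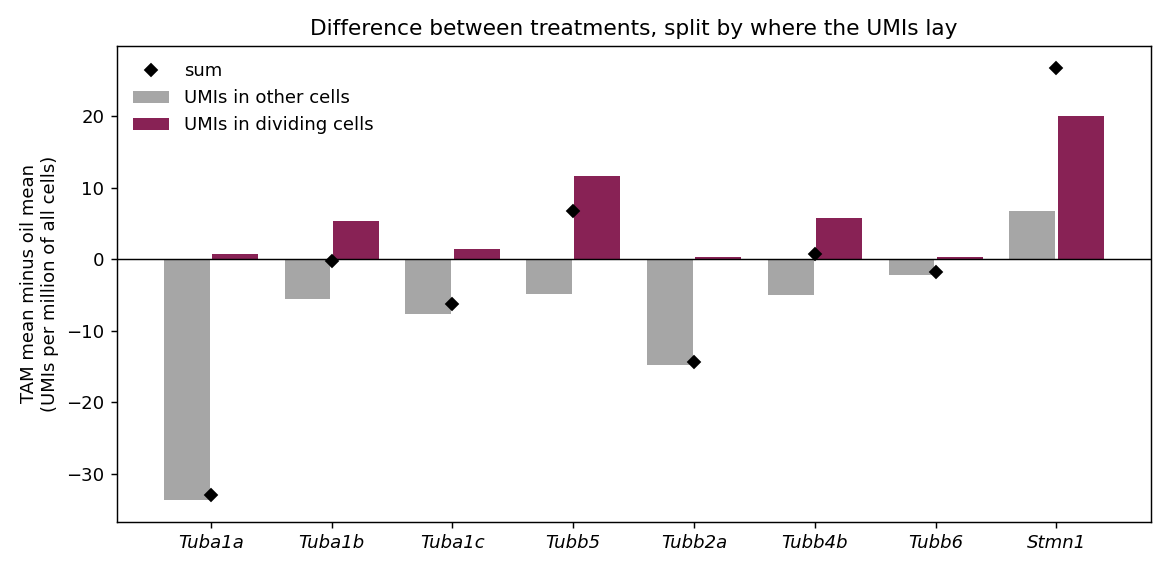
TAM mean minus oil mean in CPM of total UMIs, divided into UMIs in dividing cells (purple) and in other cells (grey), with the sum as a diamond, for each of the 8 genes. The Stmn1 difference of 26.8 lies mostly in dividing cells, the Tuba1a difference of -32.9 lies in other cells, and the parts of Tubb4b and Tuba1b nearly cancel.

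Levels inside and outside dividing cells were compared within the 5 hashtags that held at least 3 dividing cells, Oil5 and TAM2 to TAM5. Stmn1 reached 446, 1003, 1509, 1303 and 1549 CPM in dividing cells of these hashtags, against 24.9, 27.2, 35.2, 38.3 and 43.1 CPM in their other cells. Every dividing value lay far above every value of the other cells, and the dividing cells of Oil5 were the lowest. The log2 fold was 5.10 ± 0.19 (SE).

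Tubb4b reached 159, 239, 321, 497 and 331 CPM in dividing cells against 25.7 to 37.7 CPM in the others, a log2 fold of 3.38 ± 0.27. Tubb5 stood at 319, 1146, 578, 766 and 677 CPM in dividing cells against 138 to 157 CPM in the others, a log2 fold of 2.25 ± 0.18. Tuba1b stood at 223, 263, 460, 391 and 361 CPM against 77.7 to 101 CPM, a log2 fold of 1.97 ± 0.21. In each of these 3 genes all 5 hashtags were higher in dividing cells, with Oil5 the lowest.

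Tuba1c stood at 0, 23.9, 128, 122 and 45.1 CPM in dividing cells and at 4.43 to 9.02 CPM in the others, higher in 4 of 5 hashtags (log2 fold 3.58 ± 0.44). The 3 dividing cells of Oil5 gave no Tuba1c UMI. Tuba1a and Tubb2a were lower in dividing cells in all 5 hashtags, but on few counts. The dividing cells of all hashtags held 21 UMIs of Tuba1a and 15 of Tubb2a. Over all genes tested in this contrast 40.0% of log2 folds were positive and the median was -0.17, so lower values were common. Tuba1a stood at 31.9, 47.8, 53.5, 48.9 and 75.2 CPM in dividing cells and at 127, 89.2, 88.9, 99.6 and 81.6 CPM in the others (log2 fold -0.82 ± 0.37). Tubb2a averaged 38.5 ± 20.8 CPM in dividing and 64.7 ± 13.3 CPM in other cells (SD, n = 5 hashtags), a log2 fold of -0.83 ± 0.45. Tubb6 did not pass the filter on low counts.

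In this contrast 16.3% of 9748 genes passed (edgeR, adjusted p below 0.05). Of the 7 genes that passed the filter 5 were among them, all higher in dividing cells: Stmn1, Tubb4b, Tubb5, Tuba1b and Tuba1c. Of all genes 7.69% were higher and 8.58% lower. The genes were chosen by this contrast too, and nothing is read from the count. Leaving out TAM4, which had the most dividing cells, gave log2 folds of 3.11 for Tubb4b and 3.08 for Tuba1c.

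**Figure D3:**
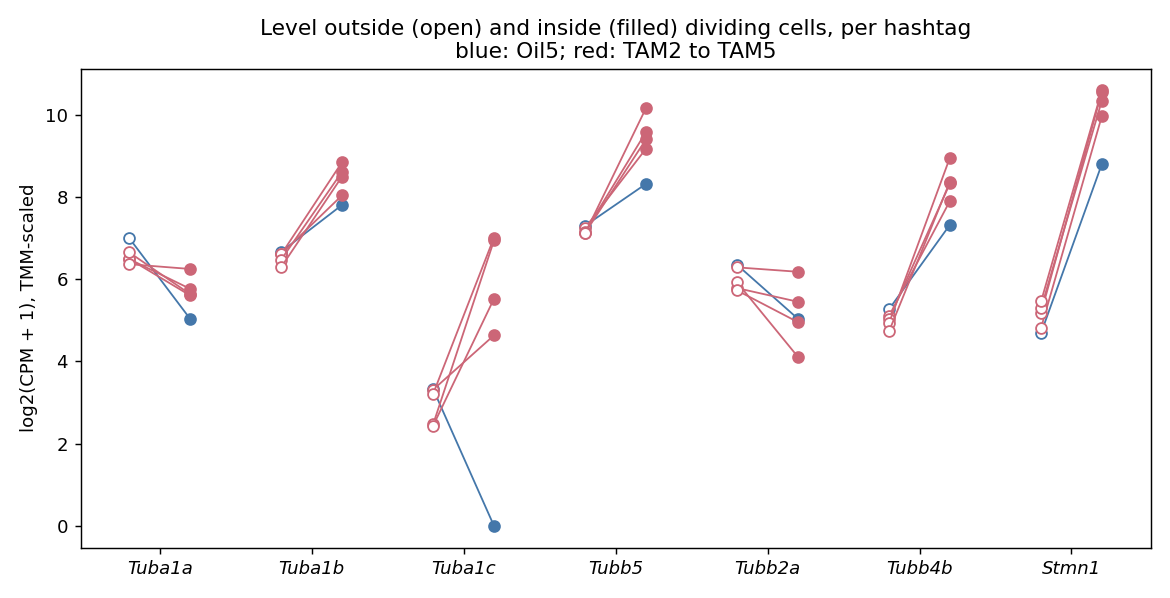
Level as log2(CPM + 1) outside (open) and inside (filled) dividing cells for the 7 genes that passed the filter, 1 line per hashtag (Oil5 blue, TAM2 to TAM5 red). Filled points lie far above open ones for Stmn1 and Tubb4b, above them for Tubb5 and Tuba1b, below them for Tuba1a and Tubb2a, and on both sides for Tuba1c, where dividing cells of Oil5 had no UMI.

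Cells on either side of the limit of 3 UMIs were described by pooling all hashtags. At 0 UMIs of Mki67 and Top2a (7528 cells) Stmn1 stood at 24.9 CPM of total UMIs, at 1 to 2 UMIs (37 cells) at 465, at 3 to 4 (9 cells) at 726 and at 5 or more (40 cells) at 1349. Stmn1 was therefore already far above its base level in the 37 cells just outside the limit. Tubb4b stood at 29.7, 60.8, 225 and 344 CPM of total UMIs in the same steps, and Tubb5 at 135, 165, 346 and 771. For these genes the cells just outside the limit were nearer to the cells without a UMI than to the dividing cells. Tuba1a stood at 101, 56.5, 34.6 and 53.5 CPM of total UMIs.

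**Figure D4:**
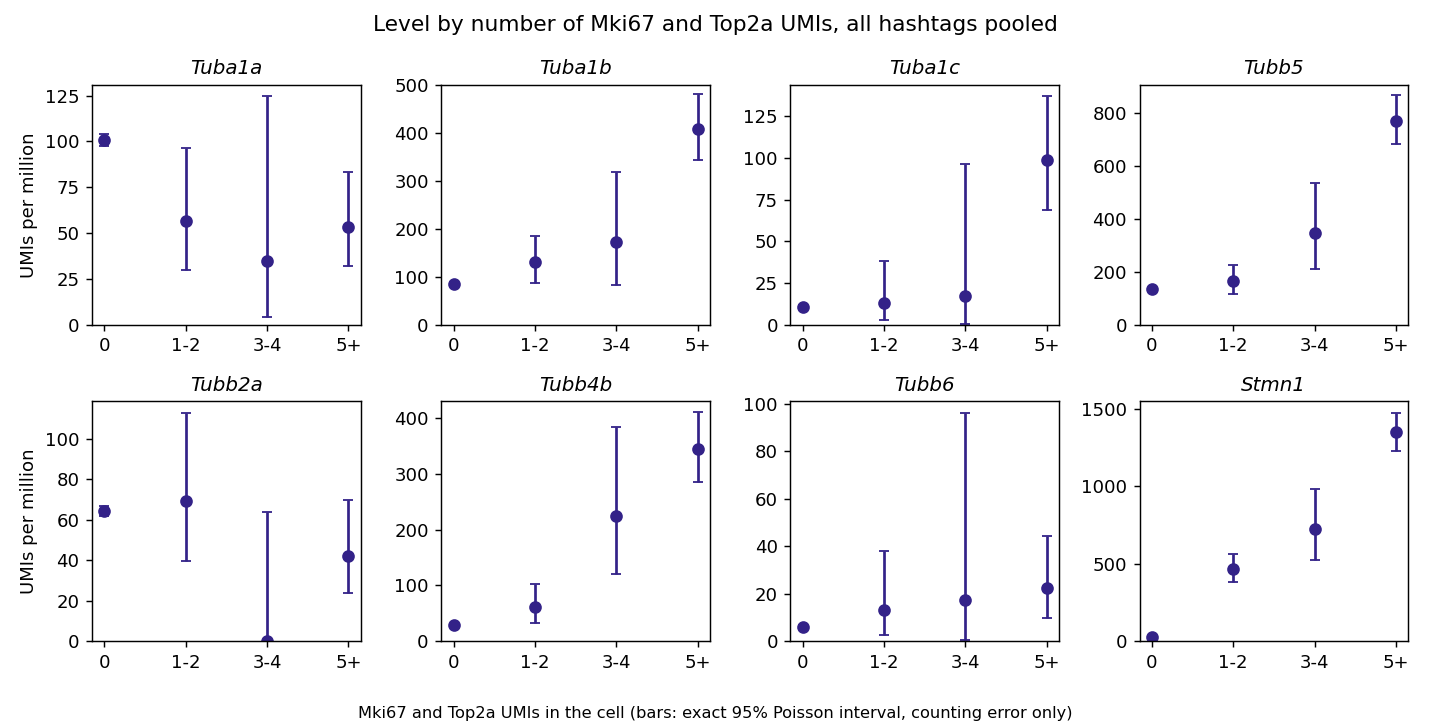
CPM of total UMIs of each gene in cells with 0, 1 to 2, 3 to 4 and 5 or more UMIs of Mki67 and Top2a, all hashtags pooled, with exact 95% Poisson intervals that cover counting error only. Stmn1 climbs from 24.9 to 465, 726 and 1349, while Tuba1a is 101 at 0 UMIs and between 34.6 and 56.5 in the other steps. Most cells in those other steps were from TAM hashtags, in which Tuba1a was lower over all cells. In TAM hashtags alone it stood at 84.8 at 0 UMIs and at 67.3, 38.3 and 55.3 in the other steps, on 13, 2 and 16 UMIs.

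Beyond division, levels varied between the other clusters of cells, here also as a description with cells of all hashtags pooled. In the 234 cells led by Spp1, Lpl and Ccl4, genes of activated microglia, Tubb6 stood at 35.8 CPM of total UMIs (exact 95% Poisson interval 26.6 to 47.0), against 6.13, 5.42 and 3.62 in the 3 largest clusters. Tubb5 stood there at 194 (172 to 219), Stmn1 at 55.4 (43.9 to 69.0) and Tuba1a at 60.3 (48.2 to 74.5). Tuba1a stood at 120 (112 to 128) in the cluster led by Fos and Egr1, which held 1102 oil and 83 TAM cells. In the largest cluster, with 1716 oil and 1628 TAM cells, it stood at 115 (109 to 120), and in the next, with 832 and 1910, at 83.3 (78.8 to 88.0). Tuba1a was lower in the large cluster with more TAM cells than in the 2 with more oil cells. So was each of the other genes, and the pattern is not particular to Tuba1a. Tubb5 stood at 117 there, against 129 in the Fos and Egr1 cluster and 149 in the largest, and Tuba1b at 74.1 against 83.0 and 95.5. In the 53 cells led by interferon-induced genes such as Ifit3, Tubb5 stood at 201 (150 to 263) and Stmn1 at 34.8 (15.9 to 66.0).

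Because immediate early RNA moved with treatment, the nondividing cells of each hashtag were ranked by its share of their UMIs, and the 195 to 298 cells with the highest share were compared with as many cells with the lowest. High and low are relative to the hashtag. The high cells of TAM5 had a median share of 0.198%, below the 0.357% of the low cells of Oil1. In TAM3 to TAM5 a cell held a median of 7 or 8 immediate early UMIs, so counting error enters the ranking there. This contrast lies within hashtags and did not serve to choose the 8 genes, so they were tested. In all, 4.34% of 9350 genes passed (edgeR quasi-likelihood test with hashtag as block, adjusted p below 0.05), 2.96% higher and 1.38% lower in the high cells. Of the 7 genes tested 3 passed, Tuba1a and Tubb2a higher and Stmn1 lower in the high cells. Tubb6 did not pass the filter on low counts.

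Tuba1a stood at 111 ± 24.1 CPM in high and 90.4 ± 16.9 CPM in low cells (SD, n = 10 hashtags), a log2 fold of 0.29 ± 0.06 (edgeR, adjusted p = 8.0e-04). It was higher in 10 of 10 hashtags, from 140 against 114 CPM in Oil1 to 86.0 against 63.1 CPM in TAM5. Over the oil hashtags alone the edgeR adjusted p was 0.0067, and over the TAM hashtags alone it was 0.255 at a log2 fold of 0.24. Most oil hashtags were split at higher shares than the TAM hashtags, so these results are not like for like. With each cell thinned to 2000 UMIs the log2 fold was 0.31 (edgeR, adjusted p = 0.0599), and with DESeq2 the adjusted p was 0.0589.

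Tubb2a stood at 73.5 ± 17.7 CPM in high and 57.8 ± 11.6 CPM in low cells (SD, n = 10 hashtags), a log2 fold of 0.36 ± 0.08 (edgeR, adjusted p = 0.0035), and was higher in 8 of 10 hashtags. The fold did not hold in thinned cells, where it was 0.10 (edgeR, adjusted p = 0.862), and the DESeq2 adjusted p was 0.180. Stmn1 stood at 24.02 ± 5.11 CPM in high and 33.9 ± 14.7 CPM in low cells (SD, n = 10 hashtags), a log2 fold of -0.47 ± 0.13 (edgeR, adjusted p = 0.0200). It was higher in the high cells of 1 of 10 hashtags, Oil1. TAM5, with 71.3 CPM in low and 21.3 CPM in high cells, lay far from the others, and without it the log2 fold was -0.28 (edgeR, adjusted p = 0.237). Stmn1 also missed the threshold without Oil2 (edgeR, adjusted p = 0.0585), in thinned cells (-0.14, adjusted p = 0.901) and with DESeq2 (adjusted p = 0.447).

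The other genes did not pass in this contrast. Tuba1c had a log2 fold of 0.60 ± 0.21 (edgeR, adjusted p = 0.0907), higher in 8 of 10 hashtags. Tubb4b had 0.20 ± 0.11, Tubb5 0.03 ± 0.05 and Tuba1b 0.02 ± 0.06 (edgeR, adjusted p = 0.385, 0.866 and 0.933). Among the genes around tubulin, described further on, 0 of 22 folding genes, 0 of 20 interphase regulators, 0 of 18 nucleation genes and 0 of 11 modifying enzymes passed (edgeR, with 2, 1, 2 and 2 at an unadjusted p under 0.05).

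**Figure D5:**
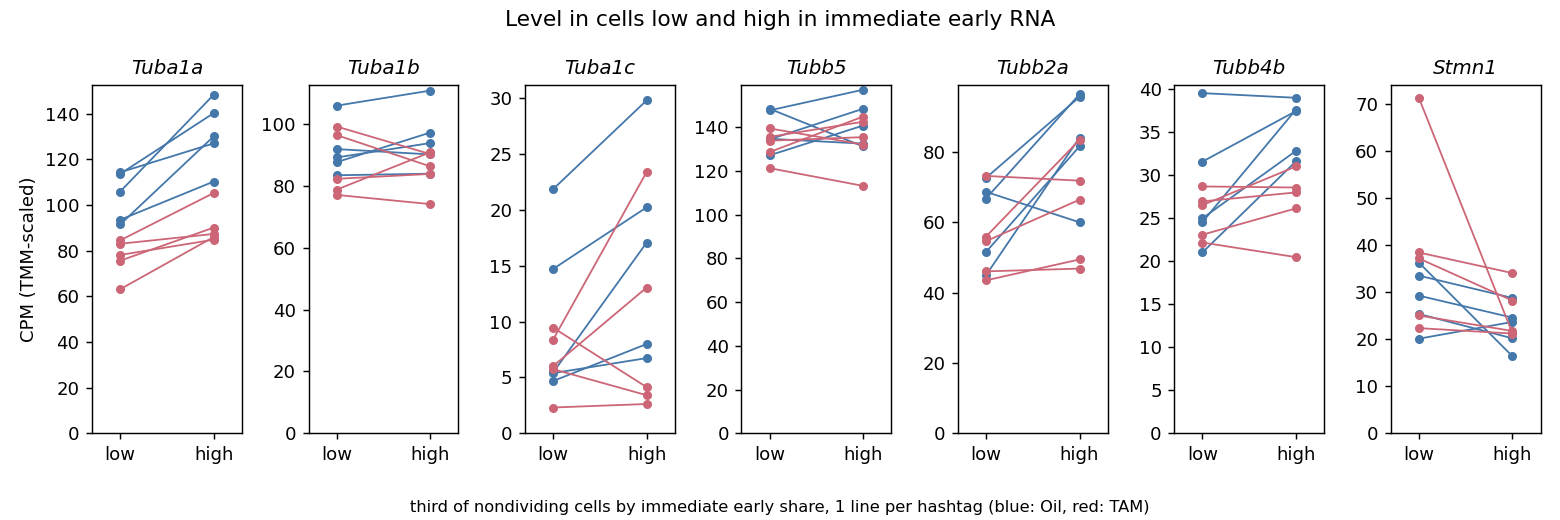
CPM (TMM-scaled) of 7 genes in the nondividing cells of each hashtag with the lowest and the highest share of immediate early RNA, 1 line per hashtag (oil blue, TAM red). Tuba1a rises in 10 of 10 lines, Tubb5 and Tuba1b stay near level, and the steepest Stmn1 line is TAM5, from 71.3 to 21.3 CPM.

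The difference between treatments was also set side by side for hashtags with low Xist, an RNA made from the inactive X chromosome (Oil1, Oil2, TAM1 and TAM2), and hashtags with high Xist (the other 6). Summed Y-linked genes stood at 332 to 355 CPM in the first class and at 1.28 to 3.93 CPM in the second, so the classes are read as male and female, from the data and not from the labels. The values are the oil and TAM sums by which the 8 genes were chosen, so no test is given for them. The log2 fold of Stmn1 was 1.34 ± 0.11 (SE) in the high class and 0.16 ± 0.16 in the low class, a difference of -1.18 ± 0.20. Stmn1 was 1 of the 2 genes called in this interaction, 0.017% of 11739 tested by edgeR, and nothing is read from that. The share of dividing cells moved with it, at 0.239% and 0.846% in TAM1 and TAM2 and 1.21% to 1.70% in TAM3 to TAM5. Without dividing cells the difference was -0.54. For Tuba1a the log2 folds were -0.50 ± 0.08 and -0.54 ± 0.10 in the high and low class, and for Tubb2a -0.49 ± 0.08 and -0.21 ± 0.10.

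The genes around tubulin were taken as lists. Factors that fold tubulin or control its RNA, among them the chaperonin subunits, the prefoldins, the tubulin cofactors and Ttc5, gave 0 of 22 genes past the threshold between treatments (edgeR, 4 of them at an unadjusted p under 0.05). Of all genes 4.36% passed there, so 0 of 22 is near the background. Their median log2 fold was -0.07, and the smallest p-values belonged to Cct7 (-0.27 ± 0.10, adjusted p = 0.131) and Tbcb (-0.18 ± 0.07, adjusted p = 0.173). In dividing cells, too, 0 of 22 passed (edgeR, 2 at an unadjusted p under 0.05), beside 16.3% of all genes, with a median of -0.24 beside -0.17 over all genes. Enzymes that modify tubulin gave 0 of 13 between treatments (edgeR, 3 at an unadjusted p under 0.05). Atat1, the alpha-tubulin acetyltransferase, had a log2 fold of 0.34 ± 0.10 (adjusted p = 0.0558), and Ttll5, a glutamylase, 0.33 ± 0.10 (adjusted p = 0.0600). Ttll5 was the 1 gene of 11 in this list that rose in dividing cells, by a log2 fold of 1.35. In that contrast 7.69% of all genes were higher, so 1 of 11 is near the background.

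Of 16 other tubulin and stathmin genes 3 had enough counts for a test, and 0 passed between treatments (edgeR, 1 at an unadjusted p under 0.05). Tubb2b, the neighbour in sequence of Tubb2a, had a log2 fold of -0.31 ± 0.09 (adjusted p = 0.0613). In dividing cells 2 of the 3 rose, beside 7.69% of all genes, Tubg1, the gamma-tubulin of the nucleating complex, by 2.35 and Tubd1 by 1.88. Among interphase microtubule regulators 1 of 21 rose with TAM, the polymerase Ckap5 (0.29 ± 0.07, edgeR, adjusted p = 0.0352), and outside dividing cells 0 of 21 passed (edgeR, 7 at an unadjusted p under 0.05). Between treatments 4.36% of all genes passed, so 1 of 21 is near the background. In dividing cells 3 of 21 rose, beside the same 7.69% of all genes, the severing factor gene Fignl1 by 6.02, Ckap5 by 2.02 and the depolymerizing kinesin gene Kif2a by 1.17.

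Among nucleation genes Mzt1 rose (0.31 ± 0.08, edgeR, adjusted p = 0.0340) and Mzt2 fell with TAM (-0.28 ± 0.08, adjusted p = 0.0431), of 19 tested. Of all genes 1.57% rose and 2.79% fell, and nothing is read from so few genes about the list. Mzt1 and Mzt2 encode small subunits of the gamma-tubulin complex, and both also passed outside dividing cells. In dividing cells 6 of 18 rose and 1 fell, beside 7.69% and 8.58% of all genes, among them the centrosome gene Cdk5rap2 (2.60 ± 0.28), Pcnt (1.69 ± 0.31) and the augmin genes Haus3 (2.14 ± 0.40) and Haus8 (2.51 ± 0.49). Akap9, a Golgi and centrosome anchor, was the gene that fell (-1.22 ± 0.27).

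Of 28 mitotic spindle genes 14 passed the filter on low counts between treatments, and 8 of these rose, 0 fell and 6 did not pass, beside 1.57% of all genes higher. The central spindle genes Kif23 (2.94 ± 0.48, edgeR, adjusted p = 0.0043) and Prc1 (2.73 ± 0.54, adjusted p = 0.0098) were among them, with Birc5 (2.45 ± 0.49) and Kif15 (1.0 ± 0.21). Outside dividing cells 5 of the 28 genes were left with enough counts and 0 passed (edgeR, 1 at an unadjusted p under 0.05). Most of the 14 thus entered the test through their counts in dividing cells, which were more frequent in TAM, and the count of 8 is no separate support. In dividing cells 25 of 25 tested were higher, a count that the choice of cells by Mki67 and Top2a and the filter largely set, beside 7.69% of all genes. Of 21 immediate early genes 17 fell with TAM, beside 2.79% of all genes, with a median log2 fold of -1.57.

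The genes most like Tuba1a, Tubb5 and Stmn1 in their levels over the 10 hashtags were looked up among 8908 genes with a mean of at least 10 CPM (Pearson r of log2 CPM, as a description). The 10 hashtags share 1 droplet pool and fall into 2 treatments, and both enter any such likeness. Nearest to Tuba1a were Arl4c (r = 0.98), Ciao2b (0.96), Gm14455 (0.96), Rbmxl1 (0.95) and the immediate early gene Ier2 (0.95). Nearest to Stmn1 were the cell cycle inhibitor gene Cdkn1a (r = 0.96), the lamin gene Lmnb1 (0.96), Cttnbp2nl (0.95), the formin gene Diaph3 (0.94) and Ttc14 (0.94). Cdkn1a averaged 22.0 CPM in oil and 73.6 CPM in TAM. Nearest to Tubb5, whose levels hardly differed between hashtags, were Arhgef11 (r = 0.93), Sike1 (0.90), Senp7 (0.88), Txnl4a (0.88) and Lztr1 (0.88).

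The promoters of the tubulin genes were searched because Tubb4b, Tubb5, Tuba1b and Tuba1c were higher in dividing cells while Tuba1a and Tubb2a were not. CCAAT boxes, bound by the factor NF-Y, and the cell cycle homology region are known elements of promoters active late in the cell cycle. RefSeq promoter windows (GRCm38.p6, 250 bases before to 50 after the start) were at hand for 6 of the 8 genes, all except Tubb6 and Stmn1. CCAAT, on either strand, occurred 5 times in Tubb4b, 2 times in Tubb5, 1 time each in Tuba1a and Tuba1c, and 0 times in Tuba1b and Tubb2a. For Tuba1a and Tuba1b the RefSeq start lies inside the gene as placed by GENCODE M21. Their windows reach only to chr15:98953751 and chr15:98934640, and the GENCODE genes begin at 98953703 and 98934565. Fewer bases before the GENCODE start were thus searched in these 2 genes, and their counts are not like for like with Tubb4b. It occurred at least once in 37.4% of 32851 promoters, and 89 promoters (0.271%) held as many matches as Tubb4b or more. TTTGAA, one spelling of the cell cycle homology region, occurred in Tubb4b and in 17.9% of all promoters. The sequence before the Tubb4b start (chr2:25224703-25224952, minus strand, shown 5′ to 3′) is printed for its run of CCAAT boxes, with CCAAT and TTTGAA in capitals.
Tubb4b promoter: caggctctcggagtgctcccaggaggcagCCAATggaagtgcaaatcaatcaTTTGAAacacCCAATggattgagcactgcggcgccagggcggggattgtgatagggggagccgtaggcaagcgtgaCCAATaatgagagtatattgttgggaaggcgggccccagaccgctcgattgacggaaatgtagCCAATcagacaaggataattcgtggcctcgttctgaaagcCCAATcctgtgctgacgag
Counted from the start site, the boxes begin at -221, -188, -122, -59 and -19, and TTTGAA begins at -198. TTCGAA, another spelling of that region, the E2F sites TTTGGCGC and TTTCCCGC, and the CArG box of immediate early promoters, searched on both strands as well, occurred in 1.56%, 0.514%, 1.07% and 0.0639% of all promoters and had no match in these 6. None of the motifs searched overlaps another by its letters in the Tubb4b window. The matches are letters in a window, and no measurement of factor binding was made.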

How the data were processed

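Gene expression and hashtag libraries of sorted microglia were read from 1 deposited matrix of raw UMI counts, which per the file headers the authors made with Cell Ranger 7.0.0. The submitters' processing notes name mm10. No source used here states the annotation, the barcode filter or how reads shared between gene copies were counted. Hashtag names in the deposited feature table gave the groups. Barcodes were assigned with HTODemux (Seurat 5.3.0, positive quantile 0.99): 8055 were single, 1737 had several hashtags and 183 none, and only single ones were used, with no further doublet caller. Cells needed 500 genes, 1000 UMIs and at most 10% mitochondrial UMIs, which left 7903. Leiden clustering (scanpy 1.11.5, 2000 variable genes, 30 components, resolution 0.5) gave 8 clusters. Of these, 6 were named microglia-like by 14 markers. Those left out were cluster 4, with 51 cells led by MHC class II genes, and cluster 5, with 238 cells at a median of 1470.5 UMIs.

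Counts were summed per hashtag and tested with edgeR 4.0.16 (quasi-likelihood F test, TMM, filterByExpr, Benjamini-Hochberg over all genes tested, threshold 0.05). Contrasts within hashtags had the hashtag as block. CPM are per 1000000 UMIs after TMM scaling, whereas values called CPM of total UMIs are unscaled. Standard errors (SE) were taken from each log2 fold and its F statistic, as the fold's size over the root of F. In the contrast of dividing cells the p-values were those of a normal test on fold over error. There the errors came from the spread shared between genes and not from each gene's own spread over hashtags. The members and gene lists were chosen with earlier results of these data known. Text names all 8 genes, up to 4 genes per list by p-value and the 5 genes most correlated with Tuba1a, Tubb5 and Stmn1, and other genes named with a list count were named because they made up that count. Alternatives used DESeq2 1.42.0, other scalings, filters, division limits, covariates and left-out hashtags. Intervals and depths cover counting error only. The tests were tested on simulated data.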

Additional observations from a re-analysis of the deposited data

Results flagged for a closer look

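The log2 fold of Stmn1 between TAM and oil differed between hashtags with low and with high Xist RNA, read from the data as male and female, by -1.18 ± 0.20 (SE, edgeR). The value is a description, since the gene was chosen by the same sums, and the difference was not tested on other samples. The TAM hashtags of the low class, TAM1 and TAM2, stood at 27.4 and 38.8 CPM, and those of the high class at 60.6, 73.4 and 65.4 CPM. Oil hashtags of both classes lay between 25.2 and 30.1 CPM. Without dividing cells the difference was -0.54, and without single hashtags it lay between -1.42 and -0.93. In the edgeR interaction fit the threshold was missed without dividing cells and without Oil1, Oil2, Oil3, Oil4, TAM1, TAM4 or TAM5. Stmn1 was flagged because it was called in that fit, and neither the call nor its loss is read as a test. The low class rests on 2 hashtags per treatment, which are also the lowest-numbered ones, so class and position cannot be told apart. No hashtag lay apart from the other 4 of its treatment by Dixon's criterion in 32 groups checked.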

How the results depend on the processing

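Every direction and call named here is of the 8 genes or of all genes tested, and the cause of each change was not tested. The higher share of dividing cells in TAM kept its direction and its side of the threshold under all 14 alternatives. Between TAM and oil 487 genes passed, against 836 without a filter on low counts, 864 with the hashtag number as replicate block, 873 with Xist class as covariate, 70 with the immediate early level, 41 with hashtag position, 74 with strict hashtag assignment and 7 for Oil4 and Oil5 against TAM. Scaling by library size gave 600, 57.5% of them higher, against 35.9% of the 487. Leaving out 1 hashtag gave 257 to 653, with 257, 285, 264 and 262 without Oil3, TAM3, TAM4 and TAM5. Outside dividing cells 429 passed, and the same settings gave 716 (no filter), 794 (replicate block), 784 (Xist class), 83 (immediate early level), 45 (position) and 8 (Oil4 and Oil5), with 187 to 543 on leaving out 1 hashtag and 244, 210, 232, 217 and 187 without Oil2, Oil3, TAM3, TAM4 and TAM5. Dividing against other cells gave 1586 genes, and 1056 (without TAM4) to 1785 on leaving out 1 hashtag. The immediate early contrast gave 406 genes, 119 in thinned cells, 147 with DESeq2, 64 without the replicate block, 137 in TAM hashtags alone and 285 to 415 on leaving out 1 hashtag. The Xist interaction gave 2 genes, 69 without a filter, 0 without dividing cells (edgeR) and 0 to 6 on leaving out 1 hashtag.

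With hashtag position as covariate the log2 fold of TAM over oil was 0.10 for Tuba1b, 1.18 for Tuba1c, 0.052 for Tubb2a and 0.027 for Tubb6, and with the immediate early level 0.79 for Tuba1c. Outside dividing cells position gave 0.11 for Tuba1b, 1.19 for Tuba1c, 0.060 for Tubb2a, 0.042 for Tubb6 and -0.17 for Stmn1, and the immediate early level gave 0.75 for Tuba1c. These are the sign changes larger than the spread between hashtags. Smaller ones occurred for Tuba1b, Tubb4b and Tubb5. Tuba1a stayed below 0 in every setting run. Strict hashtag assignment asked for at least 80% of hashtag UMIs from 1 hashtag. It left 1 cell in Oil5, 4 in Oil4, 10 in TAM2 and 15 in Oil1, against 797 in Oil3. Its log2 folds of -0.67 for Tuba1a and 1.99 for Stmn1 rest on very few cells in these hashtags and are no check on the main values. Same-numbered oil and TAM hashtags deviated together only in part (r = 0.393, 0.185, 0.0779, 0.0992 and 0.126). The highest r of each oil hashtag with a TAM hashtag of another number was 0.174, 0.0398, 0.0150, 0.247 and 0.261. The same number was thus the closest match for 1 to 3 and not for 4 and 5. These values do not settle whether the numbers pair hashtags, and the main fit did not take them as a pairing. Depth limits Tubb6, with 238 UMIs, and every value from the 49 dividing cells.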

Other observations

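Outside the microglia-like cells, the 51 cells led by MHC class II genes held 3 UMIs each of Tuba1a, Tuba1b and Stmn1. In CPM of total UMIs Tuba1a stood there at 15.03 (exact 95% Poisson interval 3.1 to 43.9), against 60.3 to 120 in the 5 microglia-like clusters other than the dividing one. Tubb5 stood at 135 (89.2 to 197) and Tubb6 at 45.1 (20.6 to 85.6). These cells belong to no comparison above. The unnamed cluster of 238 cells with low counts held 15 UMIs of Tubb5 and at most 3 UMIs of any other of the 8 genes.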
